A study of Homo sapiens with 6 samples.

Results

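The genes described here lie side by side on chromosome 17, from SPATA20 to SSTR2, on the long arm. They were chosen by position and level: single-symbol genes whose RefSeq start in GRCh38 runs from that of SPATA20 to that of SSTR2, with a mean level of 6 or more over all 6 arrays on the log2(intensity + 1) scale. The stretch itself was selected on measured values, because its genes were known to be higher in the transformed cells, so the comparison of the cell lines is a description here. Calls of the fit over all genes are counted for the members without support being drawn from them. Of 151 genes with 1 symbol in the stretch, 10 were left out by their symbol and 33 lay under the level limit, which left 108 members of 18417 genes measured. They comprise 101 protein-coding genes, 5 transcribed pseudogenes, 1 miRNA gene and 1 long non-coding RNA.

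Whole-transcript arrays were hybridised with RNA from 2 groups of prostate epithelial cell cultures, both human. The line RWPE-1 is an immortal, non-tumorigenic line made from normal prostate epithelium with human papillomavirus, and its 3 arrays came from untreated cells at passages 18, 38 and 42. CAsE-PE is the malignant line that arose from RWPE-1 under constant culture with 5 µM sodium arsenite, and its 3 arrays came from cells exposed for 30, 33.5 and 35 weeks. Both groups share the papillomavirus immortalisation and the same serum-free medium. CAsE-PE is 1 line sampled at 3 times, the labels used here do not give its passages, and none says that the arrays of a group were separate cultures, so the errors and p-values cover only the variation among these arrays, which may be technical. Because RNA was taken from whole cultures, fewer cells with a transcript and less of it per cell cannot be told apart.

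Array medians lay between 91.7 and 97.2 intensity units, and arrays correlated at 0.985 to 0.995 within a group and 0.956 to 0.969 between groups over genes on the log2 scale. The epithelial markers KRT5, KRT8, KRT18, EPCAM and CDH1 were all above a level of 7, from 9.74 to 12.05 in RWPE-1 and from 9.53 to 11.93 in CAsE-PE. CDH1 was higher by 0.39 (limma adjusted p = 0.0186), and the others differed by −0.21 to 0.09 and were not called. Of 12 fibroblast, leukocyte and endothelial markers, COL1A1 alone reached 7, at 7.75 ± 0.04 and 7.85 ± 0.11 (SD, n = 3 per group).

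Genes that are neighbours on a chromosome need have no shared function, and this stretch mixes regulators of cell division, RNA processing factors, signalling kinases and genes used only in other tissues. Part of it, around RPS6KB1, TUBD1, BCAS3, TBX2 and MIR21, is known as a region that is amplified in some breast tumours. RPS6KB1 encodes the ribosomal S6 kinase, which acts downstream of mTOR to promote protein synthesis and cell growth, and MIR21 encodes a miRNA found at high levels in many carcinomas. The question put to the arrays is which genes of the stretch follow its common shift and which escape it.

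RefSeq promoter windows were at hand for 78 of the 108 members. Shown first are the 250 bases before the start of INTS2 and PITPNC1, the members with the largest differences, and of SKA2, SMURF2 and TRIM25, which are well above the level limit, lie near or below 0 and have a gene called higher on at least 1 side. All are GRCh38.p14 sequences on the gene's own strand, 5′ to 3′, with CG dinucleotides in capitals. INTS2 (minus strand, chr17:61927983-61928232) and SKA2 (minus strand, chr17:59155187-59155436) hold 10 and 14 CG dinucleotides. PITPNC1 (plus strand, chr17:67377031-67377280) holds 20, SMURF2 (minus strand, chr17:64662308-64662557) 33 and TRIM25 (minus strand, chr17:56914050-56914299) 30.
INTS2: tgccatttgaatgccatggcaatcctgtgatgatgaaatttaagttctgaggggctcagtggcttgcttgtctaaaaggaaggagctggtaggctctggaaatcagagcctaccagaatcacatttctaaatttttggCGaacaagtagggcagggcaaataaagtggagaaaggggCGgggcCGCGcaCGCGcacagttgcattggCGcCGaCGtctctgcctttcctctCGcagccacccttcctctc
PITPNC1: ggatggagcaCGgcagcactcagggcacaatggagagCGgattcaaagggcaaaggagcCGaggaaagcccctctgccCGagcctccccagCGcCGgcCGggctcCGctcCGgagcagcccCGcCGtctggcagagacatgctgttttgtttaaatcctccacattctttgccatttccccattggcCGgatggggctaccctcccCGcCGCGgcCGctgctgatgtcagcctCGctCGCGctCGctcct
SKA2: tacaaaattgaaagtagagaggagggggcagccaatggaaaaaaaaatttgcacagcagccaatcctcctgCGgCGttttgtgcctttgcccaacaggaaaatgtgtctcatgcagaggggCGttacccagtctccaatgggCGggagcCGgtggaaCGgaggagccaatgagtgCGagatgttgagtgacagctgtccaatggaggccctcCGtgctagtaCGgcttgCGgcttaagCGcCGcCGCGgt
SMURF2: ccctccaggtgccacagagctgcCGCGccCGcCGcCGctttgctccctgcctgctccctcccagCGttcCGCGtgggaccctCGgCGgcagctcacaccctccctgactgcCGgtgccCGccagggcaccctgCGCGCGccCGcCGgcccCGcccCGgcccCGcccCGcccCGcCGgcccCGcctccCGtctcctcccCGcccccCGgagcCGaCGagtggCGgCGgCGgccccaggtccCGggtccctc
TRIM25: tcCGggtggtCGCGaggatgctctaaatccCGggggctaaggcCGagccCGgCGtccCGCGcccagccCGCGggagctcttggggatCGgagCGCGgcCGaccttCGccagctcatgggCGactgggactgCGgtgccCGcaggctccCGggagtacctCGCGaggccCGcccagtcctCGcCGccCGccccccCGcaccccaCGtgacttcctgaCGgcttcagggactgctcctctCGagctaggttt

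A further pair is shown because the 2 genes start back to back and differ alike: TUBD1, which encodes delta-tubulin, and RPS6KB1 are read in opposite directions from starts 177 bases apart. The whole of what separates their starts (chr17:59892944-59893120, plus strand, the direction of RPS6KB1) holds 11 CG dinucleotides, in capitals.
TUBD1-RPS6KB1: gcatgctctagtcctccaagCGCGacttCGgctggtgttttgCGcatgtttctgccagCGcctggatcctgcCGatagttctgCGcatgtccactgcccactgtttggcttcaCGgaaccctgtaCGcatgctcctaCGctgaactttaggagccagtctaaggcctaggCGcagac

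The mature miRNA of MIR21 (chr17:59841273-59841294, plus strand) is shown with its seed, bases 2 to 8, in capitals, because its gene overlaps the raised gene VMP1 and was itself near 0.
hsa-miR-21-5p: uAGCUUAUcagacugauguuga

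The members were higher in CAsE-PE by a median of 0.37 on the log2 scale, or 1.296-fold, which is called the common shift here. A positive difference means higher in CAsE-PE, each group has n = 3, and errors are standard errors (SE) from a limma fit of all 18417 genes. The members' quartiles were −0.04 and 0.60, and the extremes were MRC2 at −0.93 and INTS2 at 1.24. Positive differences were found for 78 members and negative ones for 30, beside a median of −0.06 and 40.5% positive over all genes. At a Benjamini-Hochberg adjusted p under 0.05, 43 members were called higher and 2 lower, MRC2 and SCN4A. Over all genes 9.04% were called higher and 8.71% lower, and since the stretch was chosen in this contrast nothing is read from the counts. All 3 CAsE-PE arrays lay above all 3 RWPE-1 arrays for 58 members and below them for 10, against 16.1% and 22.8% of all genes. The remaining 40 members overlapped.

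The shift varied with the level of the gene. The 81 members at a level of 7 or more had a median difference of 0.47, or 1.38-fold, with quartiles of 0.26 and 0.62, and 72 of them were positive. Among these 81, 41 were called higher, where 13.7% of all genes at that level were, and the arrays of 56 were separate and higher, where 24.3% of such genes were. The 9690 genes measured at that level had a median of 0.03 with 53.1% positive. By contrast, the 27 members between 6 and 7 had a median of −0.14, beside −0.13 for the 3449 genes in that band, and 6 of the 27 were positive. Only DGKE and POLG2 were called higher among those 27, and SCN4A was called lower.

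Within the brighter members the shift varied little with level: the median was 0.50 from 7 to 8, 0.53 from 8 to 9 and 0.38 above 9. The 33 genes of the stretch under the limit had a median of −0.04, and all genes under 6 had −0.11. Of those 33, CEP112, a centrosomal gene (0.79), and the non-coding RNA LINC01152 (0.82) were called higher, and the growth hormone gene GH1 (−0.38) and CCDC182 (−0.35) were called lower. Just inside the limit lay TBX4 at 6.004, KCNJ2 at 6.01 and ARSG at 6.07, with differences of 0.09, −0.39 and −0.08. Just outside lay CACNG5 at 5.87, CACNG1 at 5.84 and KIF2B at 5.82, with −0.14, −0.29 and −0.06. The deposited values carry no detection call, so levels in these lower bands cannot be told from background.

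**Figure D1:**
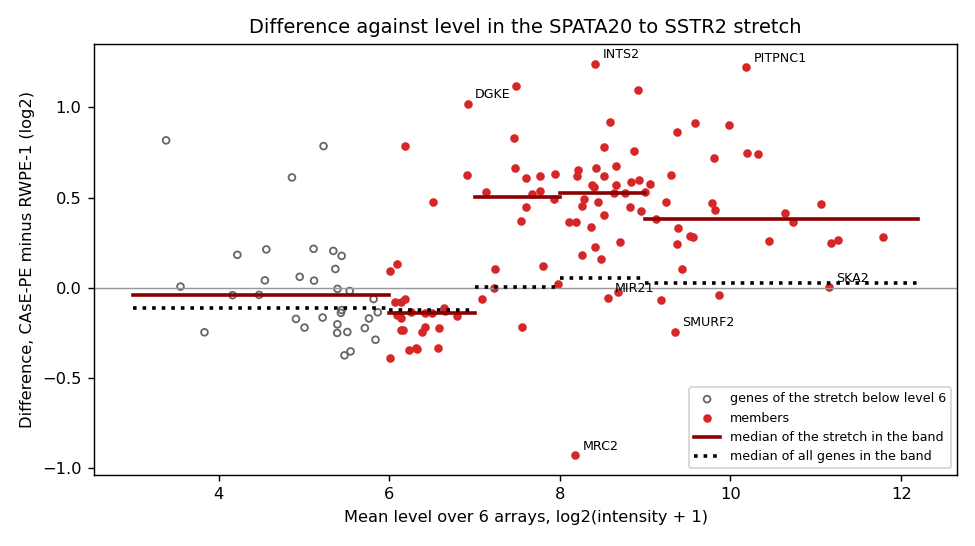
Each point is a gene of the stretch, with its mean level over 6 arrays on the horizontal axis and its difference of CAsE-PE from RWPE-1 on the vertical axis, both in log2 units; filled points are members and open points genes under the level limit of 6. Solid bars are medians of the stretch and dotted bars medians of all genes in the same band of level, and the solid bars stand at 0.50, 0.53 and 0.38 from level 7 upward but at −0.14 between 6 and 7.

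Array by array, the shift was alike at the 3 exposure times. For the 81 brighter members the median deviation from the RWPE-1 mean was 0.46 at 30 weeks, 0.41 at 33.5 and 0.48 at 35, and 70, 72 and 71 of them lay above that mean. In RWPE-1 the values were 0.02, 0.04 and −0.05 for passages 18, 38 and 42. All genes at that level gave 0.01, 0.03 and 0.04 at 30, 33.5 and 35 weeks. The median SD of a single gene within a group was 0.15 for members and 0.14 for all genes.

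The raised values did not begin at SPATA20 or end at SSTR2. Along chromosome 17, in consecutive groups of 15 genes at level 7 or more, medians stayed between −0.21 and 0.09 through the group from TUBG2 to RNU2-1 (−0.03). The next group, from DHX8 to ATXN7L3, had a median of 0.30, and the groups up to ACSF2 had 0.27 to 0.37. The group from RSAD1 to PCTP had the highest of all full groups, 0.60, followed by 0.43, 0.56, 0.47 and 0.42 through BPTF. From C17orf58 to NAT9 the median was 0.28, and the later groups to the end of the chromosome had 0.19 to 0.52. In all, 407 genes before the stretch had a median of 0.01, with 207 positive, and 132 genes after it had a median of 0.34, with 113 positive.

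Within the stretch, blocks of 10 brighter members had medians of 0.61, 0.48, 0.33, 0.53, 0.65, 0.41, 0.44 and 0.27 in gene order, so the block from PITPNC1 to SOX9 was the lowest. At the near end SPATA20 (0.16, SE 0.10) and the calcium channel gene CACNA1G (−0.13, SE 0.11) were below the common shift, as were CHAD (0.08), RSAD1 (0.03) and EPN3 (0.26) just before them. At the far end SOX9 (−0.03), the zinc transporter gene SLC39A11 (0.12) and the somatostatin receptor gene SSTR2 (−0.14) were low, while COG1 (0.80), VCF1 (0.31) and MTNAP1 (0.81) just beyond were higher. The far boundary therefore cuts through raised genes, and raised genes also lie before the near one.

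**Figure D2:**
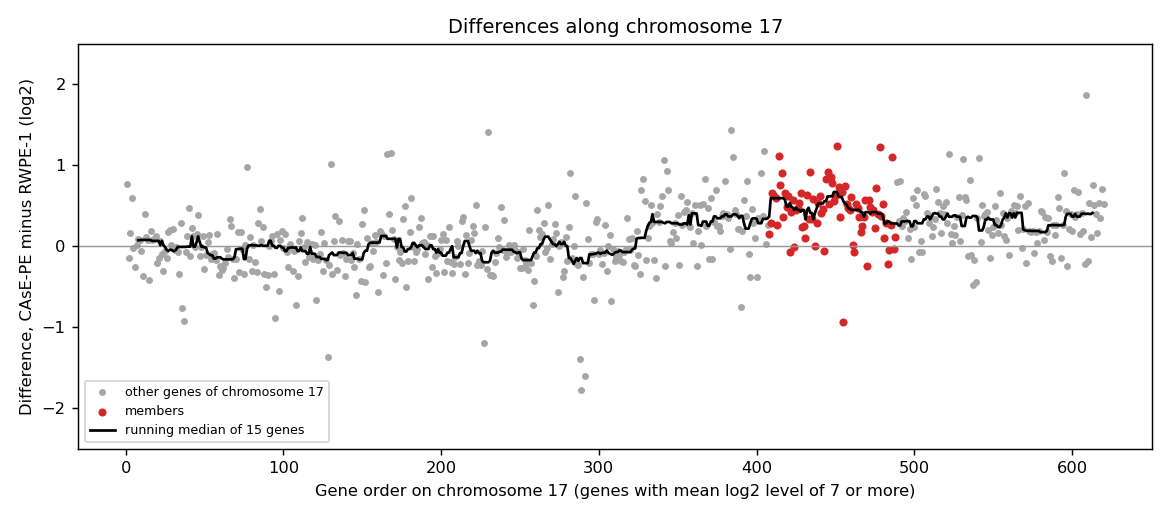
Each point is a gene of chromosome 17 at level 7 or more, placed by its order along the chromosome, with its log2 difference of CAsE-PE from RWPE-1 on the vertical axis; red points are the members and the line is the running median of 15 genes. The line stays near 0 over the first part and is positive from about the group of DHX8 to ATXN7L3 onward. It is highest in the stretch, at 0.67 around BRIP1, and stays positive to the end.

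To ask which members follow the shift within their own error, the 95% interval of each difference was set against 0.37. The intervals are not adjusted for their number and sort the members without testing them. Of 108 members, 19 had an interval wholly above 0.37, 56 had one that held it and 33 had one wholly below. Of the 56, 41 intervals lay above 0 and 15 held 0 as well as the shift, so those 15 cannot be sorted. Of the 33 below, 26 intervals held 0 and 7 lay wholly under 0. With a median SE of 0.12 over the members, most intervals were wider than the span from 0 to 0.37. This sorting therefore could not show a rise that was clear of 0 yet smaller than the shift. The class below was mostly made of dim genes: 21 of the 33 had levels from 6 to 7. Against their own median of 0.47, the 81 brighter members split into 10 above, 57 around and 14 below. Of the brighter members, 70 of 81, or 86.4%, were within 0.5 of that median. Of all genes at that level, 81.9% were within 0.5 of their own median, 0.03.

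**Figure D3:**
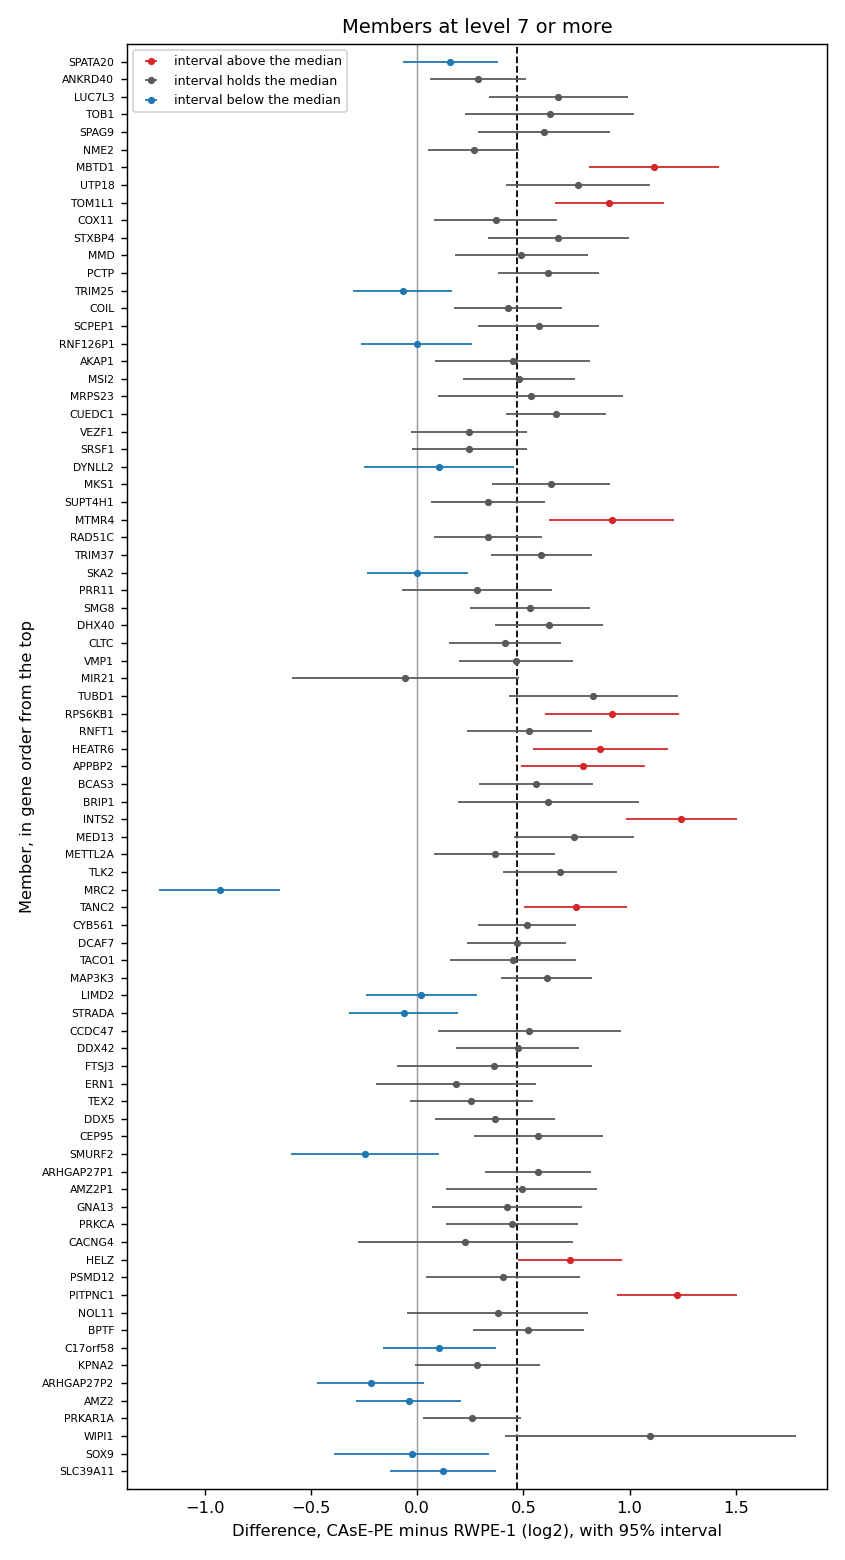
Log2 differences of CAsE-PE from RWPE-1 with their 95% limma intervals (n = 3 per group) for the 81 members at level 7 or more, in gene order from top to bottom; the dashed line is their median, 0.47, and the thin line is 0. Red marks the 10 intervals above the dashed line, blue the 14 below and grey the 57 that hold it, and the blue ones are scattered among the others from SPATA20 to SLC39A11.

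Above the shift, INTS2, a subunit of the Integrator complex that processes small nuclear RNAs, had the largest difference. Its levels were 7.96, 7.83 and 7.59 at passages 18, 38 and 42 and 9.03, 9.05 and 9.03 at 30, 33.5 and 35 weeks, a difference of 1.24 (SE 0.12) or 2.37-fold. Every CAsE-PE array was above every RWPE-1 array by more than 1 log2 unit, and the CAsE-PE arrays barely differed.

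PITPNC1, a phosphatidylinositol transfer protein, stood at 9.66, 9.59 and 9.47 in RWPE-1 and 11.01, 10.78 and 10.60 in CAsE-PE, 1.22 higher (SE 0.12) or 2.33-fold. MBTD1, a reader of methylated histones, went from 6.79, 6.95 and 7.03 to 8.30, 7.84 and 7.98, with a difference of 1.12 (SE 0.14). Neither gene overlapped between the groups. DGKE, a diacylglycerol kinase, was at 6.41 ± 0.25 in RWPE-1 and at 7.43 ± 0.07 in CAsE-PE (1.02, SE 0.13). The RWPE-1 levels of MBTD1 and DGKE were under 7, where signal cannot be told from background, so no fold is given for either. WIPI1, which binds phosphoinositides on forming autophagosomes, was higher by 1.10 (SE 0.30), but by 0.71 without the 30-week array and 0.90 without passage 18. These 5 were the members with a measured difference of at least 1 log2 unit, all in the same direction. Without the 30-week array MBTD1 and DGKE differed by 0.99 and 0.98, and without passage 42 DGKE differed by 0.88. INTS2 and PITPNC1 stayed above 1 whichever array was left out.

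RPS6KB1 stood at 8.37, 8.20 and 7.83 in RWPE-1 and at 9.01, 9.10 and 9.04 in CAsE-PE, a difference of 0.92 (SE 0.14) or 1.89-fold. Its back-to-back neighbour TUBD1 stood at 7.13, 7.34 and 6.68 and at 8.08, 7.89 and 7.66, a difference of 0.83 (SE 0.18) or 1.78-fold. Both genes were lowest at passage 42 and separate between the groups. MTMR4, a phosphoinositide phosphatase of endosomes (0.91, SE 0.13), TOM1L1, an adaptor of Src-family kinases (0.90, SE 0.11), and HEATR6 (0.86, SE 0.14) completed the 10 largest differences. A second TOM1L1 feature gave 0.96.

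Other members that start back to back are given next. MBTD1 and UTP18, a factor of ribosomal RNA processing, start 496 bases apart and differed by 1.12 and 0.76. CCDC47 and the RNA helicase gene DDX42, 572 bases apart, differed by 0.53 and 0.47, and the helicase gene DDX5 and CEP95, 338 bases apart, by 0.37 and 0.57. SKA2 and PRR11, 559 bases apart, had 0.00 (SE 0.11) and 0.28 (SE 0.16). The interval of PRR11, from −0.07 to 0.64, holds both 0 and the shift, so it cannot be placed with either. These 5 pairs were the ones found among members with a window in the table.

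Below the shift, MRC2 was the one brighter member that was clearly lower in CAsE-PE. It encodes a collagen-binding endocytic receptor of the mannose receptor family. Its levels were 8.64, 8.48 and 8.81 in RWPE-1 and 7.85, 7.53 and 7.76 in CAsE-PE, a difference of −0.93 (SE 0.13), so RWPE-1 was 1.91-fold higher. The groups did not overlap. Its neighbours among the members, the kinase gene TLK2 (0.67, SE 0.12) before it and the scaffold gene TANC2 (0.75, SE 0.11) after it, were raised.

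SKA2, a part of the complex that holds spindle microtubules at kinetochores, is among the brightest members and did not differ between the groups beyond its error. It stood at 11.17, 11.21 and 11.08 in RWPE-1 and 11.00, 11.23 and 11.22 in CAsE-PE, a difference of 0.00 with an interval from −0.24 to 0.24. The platform annotation gives it a second feature, at a mean of 9.78, with −0.06. RefSeq also lists a pseudogene copy, SKA2P1, on another chromosome, so signal from that copy cannot be told apart from SKA2. The ubiquitin ligase gene TRIM37 (0.58, SE 0.11) precedes it.

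Among the brighter members, the ubiquitin ligase genes SMURF2 and TRIM25 also had intervals below the shift. SMURF2, which limits TGF-beta and BMP signalling, stood at 9.72, 9.54 and 9.15 in RWPE-1 and 9.38, 9.11 and 9.18 in CAsE-PE (−0.24, SE 0.15). Its difference was −0.12 without passage 18 and −0.41 without passage 42. It lies between CEP95 (0.57) and ARHGAP27P1 (0.57). TRIM25, which activates the RNA sensor RIG-I, stood at 9.36, 9.10 and 9.22 and at 9.13, 9.16 and 9.17 (−0.07, SE 0.10), between DGKE (1.02) and the coilin gene COIL (0.43). In each the groups overlapped.

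LIMD2 and STRADA are adjacent and both near 0. STRADA, the pseudokinase that activates LKB1, had 6.92, 7.19 and 7.25 in RWPE-1 and 7.02, 7.12 and 7.04 in CAsE-PE (−0.06, SE 0.11). LIMD2, a partner of integrin-linked kinase, differed by 0.02 (SE 0.12), with 7.96 ± 0.09 against 7.98 ± 0.17. On either side, the kinase gene MAP3K3 (0.61, SE 0.09) and CCDC47 (0.53, SE 0.19) were higher.

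The transcription factor gene SOX9, a regulator of epithelial progenitors, had 8.81, 8.79 and 8.48 in RWPE-1 and 8.99, 8.60 and 8.41 in CAsE-PE (−0.03, SE 0.16), and its groups overlapped. AMZ2, a metalloprotease gene, was at 9.89 ± 0.05 and 9.85 ± 0.15 (−0.04, SE 0.11). DYNLL2, a dynein light chain gene, differed by 0.10 (SE 0.16). RNF126P1, C17orf58, ARHGAP27P2, SPATA20 and SLC39A11 complete the 14 brighter members with intervals below 0.47, and the first 3 are named after their values were seen. Levels of these 14 ran from 7.09 in STRADA to 11.15 in SKA2, so they were not confined to dim genes.

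MIR21 lies at the end of VMP1, a gene of autophagosome formation, and is also read from a promoter of its own. VMP1 stood at 10.99, 10.90 and 10.61 in RWPE-1 and at 11.30, 11.25 and 11.35 in CAsE-PE (0.46, SE 0.12). The MIR21 feature stood at 8.98, 8.30 and 8.49 in RWPE-1 and at 9.06, 8.26 and 8.30 in CAsE-PE (−0.06, SE 0.24). In both groups the first array was the highest, and the interval from −0.59 to 0.48 holds both 0 and the shift. The platform annotation used here does not say whether the feature reads the precursor, the primary transcript or the mature miRNA printed above.

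**Figure D4:**
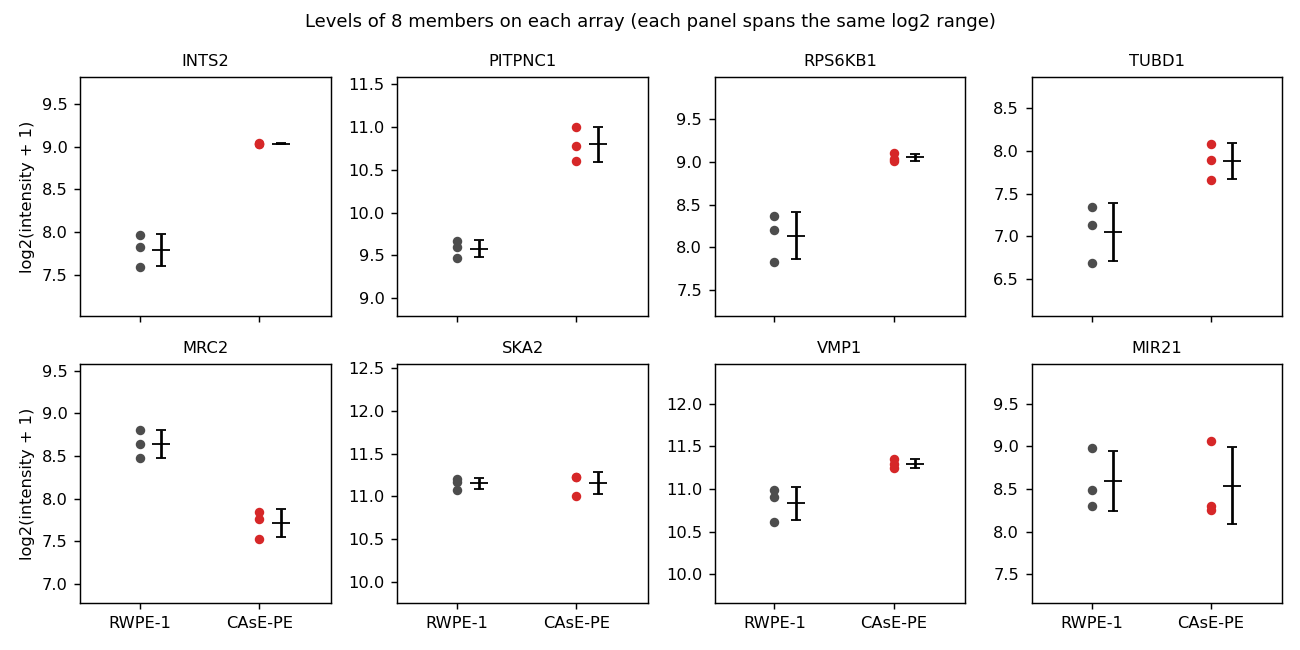
Levels of 8 members on each array as log2(intensity + 1), with RWPE-1 points at left and CAsE-PE points at right in each panel and bars for the mean ± SD (n = 3); every panel spans the same log2 range. INTS2, PITPNC1, RPS6KB1, TUBD1 and VMP1 are separate and higher in CAsE-PE, MRC2 is separate and lower, and SKA2 and MIR21 overlap.

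Copies with similar sequence disagreed in places. The pseudogenes ARHGAP27P1 and ARHGAP27P2 differed by 0.57 (SE 0.11) and −0.22 (SE 0.11), and AMZ2P1 by 0.49 (SE 0.16) where AMZ2 had −0.04. Probes can share signal among such copies, so these values are uncertain, as are those of CSH2, CSHL1, NME2, METTL2A, NACA2, RNF126P1 and MSX2P1. The 4 features of NME2, a nucleoside diphosphate kinase gene, gave 0.23 to 0.27, and the 2 of the nuclear import gene KPNA2 gave 0.28 and 0.29.

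Grouped by function, the members active in most cells had like medians. These lists were drawn up from textbook knowledge with earlier results of these data known, and a gene can stand in more than 1. For comparison, 9.04% of all genes and 13.7% of those at level 7 or more were called higher. In the stretch itself, chosen because it is raised, 39.8% of members and 50.6% of the brighter ones were. Nothing is therefore read from the counts of a list.

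RNA processing and ribosome assembly held 14 members, of which 9 were called higher and 5 not, with a median of 0.48. Beside INTS2 and UTP18 (0.76, SE 0.15), the RNA helicase gene HELZ had 0.72 (SE 0.11) and the splicing gene LUC7L3 0.66 (SE 0.14). The splicing factor gene SRSF1, the brightest of the list, stood at 11.05 ± 0.20 and 11.30 ± 0.06 (0.25, SE 0.12) and was not called. Lowest was NACA2 at 0.13 (SE 0.14).

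Membrane traffic and autophagy held 9 members, 6 of them called higher and 3 not, with a median of 0.53 and a range from 0.25 in TEX2 to 1.10 in WIPI1. The clathrin heavy chain gene CLTC stood at 10.54, 10.52 and 10.24 in RWPE-1 and at 10.94, 10.87 and 10.73 in CAsE-PE (0.41, SE 0.12). STXBP4, a syntaxin-binding protein gene, had 0.66 (SE 0.15).

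Members listed under mitochondria numbered 6, with 3 called higher and a median of 0.49. The list also takes in PCTP, whose protein is mainly cytosolic and which is among the 3. POLG2, the accessory subunit of the mitochondrial DNA polymerase, had 0.63 (SE 0.13), the lipid transfer gene PCTP 0.62 (SE 0.10), the translational activator gene TACO1 0.45 (SE 0.13) and the cytochrome oxidase assembly gene COX11 0.37 (SE 0.13). Their range was narrow, from 0.37 to 0.63.

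Mitosis and DNA repair held 10 members, of which 4 were called higher, with a median of 0.45 and a range from 0.00 in SKA2 to 0.83 in TUBD1. The helicase gene BRIP1, a partner of BRCA1, had 8.15, 8.42 and 8.04 in RWPE-1 and 8.38, 9.02 and 9.07 in CAsE-PE (0.62, SE 0.19), so its 30-week array lay among the RWPE-1 values. RAD51C, a recombination gene, had 0.33 (SE 0.11) and KPNA2, the brightest, 11.65 ± 0.18 and 11.93 ± 0.17 (0.28, SE 0.13). Neither was called.

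Signalling kinases and their partners numbered 14, with 6 called higher and a median of 0.45. The extremes were RNF43, a ubiquitin ligase that limits Wnt signalling (−0.34, SE 0.11), and DGKE (1.02). PRKAR1A, a regulatory subunit of protein kinase A and the brightest of the list, stood at 10.31, 10.26 and 10.41 and at 10.69, 10.56 and 10.50 (0.26, SE 0.10), separate between the groups but not called. The protein kinase C gene PRKCA had 0.45 (SE 0.14) and the unfolded protein sensor gene ERN1 0.18 (SE 0.17).

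Among 12 members of chromatin and transcription, 6 were called higher, with a median of 0.40. MED13, of the Mediator kinase module, stood at 9.88, 9.96 and 10.03 in RWPE-1 and at 10.94, 10.54 and 10.62 in CAsE-PE (0.74, SE 0.12). The remodelling factor gene BPTF had 0.52 (SE 0.12) and the antiproliferative gene TOB1 0.62 (SE 0.18). TBX2, a repressor of senescence, lay at the low end of the range of levels, 6.70 ± 0.01 and 6.59 ± 0.05 (−0.11, SE 0.09).

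Of 8 members listed under ubiquitin and proteasome, 4 were called higher, with a median of 0.47. The list also takes in 2 proteases that are no part of that system, SCPEP1, which is among the 4, and AMZ2. The members divided: APPBP2 (0.78, SE 0.13), TRIM37, the serine carboxypeptidase gene SCPEP1 (0.57, SE 0.13) and RNFT1 (0.53, SE 0.13) were raised, while SMURF2, TRIM25 and AMZ2 were at or under 0. The proteasome subunit gene PSMD12 had 0.40 (SE 0.16) with overlapping arrays. Of 10 members in the region amplified in breast tumours, 6 were called higher, with a median of 0.51, from TBX2 at −0.11 to RPS6KB1 at 0.92.

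Members used mainly in other tissues had no measured rise, but at levels that cannot be told from background, so whether they share the shift cannot be judged. The 7 members of that list, which include the eosinophil peroxidase gene EPX, the myeloperoxidase gene MPO, the B-cell receptor gene CD79B and the endothelial adhesion gene ICAM2, all had negative differences, with a median of −0.22. All 7 had levels from 6 to 7, a band in which all genes had a median of −0.13. ICAM2, the lowest, stood at 6.53, 6.25 and 6.46 in RWPE-1 and at 6.02, 6.17 and 5.99 in CAsE-PE (−0.35, SE 0.11). Of their list another 9 were under the level limit. There PECAM1, also an endothelial adhesion gene, had 0.20 and APOH 0.18, and the rest ran from −0.38 in GH1 to −0.01 in HSF5.

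Ion and solute transport held 7 members with a median of −0.13, and they split by level. The 4 between 6 and 7 were negative: the potassium channel gene KCNJ2 (−0.39, SE 0.15), the muscle sodium channel gene SCN4A (−0.34, SE 0.10), KCNH6 (−0.17, SE 0.12) and CACNA1G. The 3 at 7 or more were positive: CYB561 (0.52, SE 0.10), CACNG4 (0.23, SE 0.22) and SLC39A11. Further members among the 10 lowest were WFIKKN2 (−0.33, SE 0.11), TSPOAP1 (−0.25, SE 0.09) and ACE (−0.24, SE 0.11), again with levels from 6 to 7. After quantile normalisation ICAM2, RNF43, TSPOAP1 and ACE differed by −0.23, −0.22, −0.13 and −0.11. Without passage 42 KCNJ2 and ACE differed by −0.23 and −0.15.

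**Figure D5:**
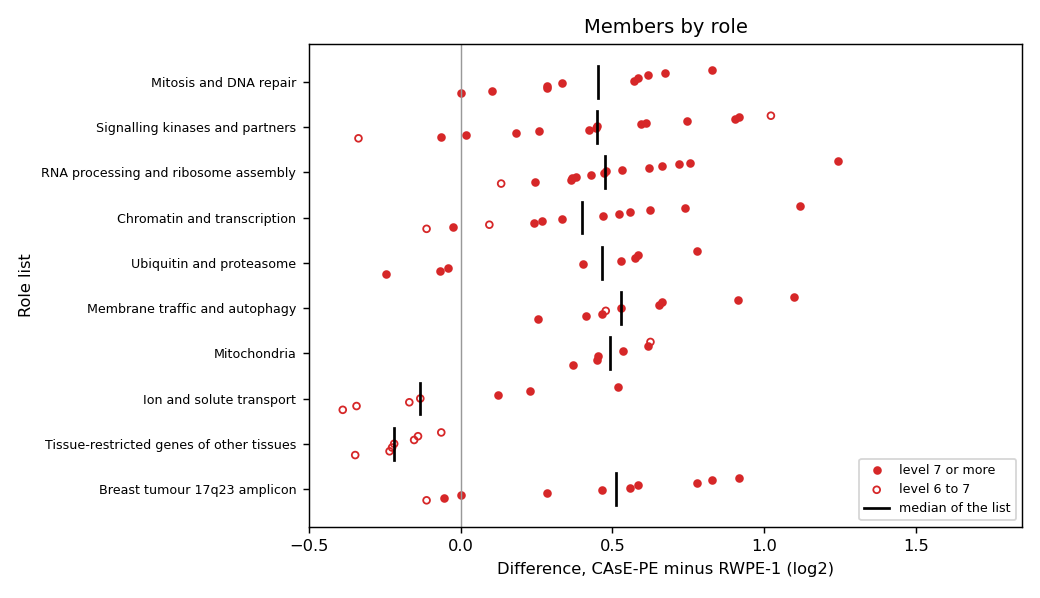
Each point is a member of the named role list, placed by its log2 difference of CAsE-PE from RWPE-1; filled points have a level of 7 or more, open points a level from 6 to 7, and the black line is the median of the list. Medians of the lists for general cell functions stand between 0.40 and 0.53, and those for ion and solute transport and for other tissues at −0.13 and −0.22.

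The members' promoter windows, 250 bases before to 50 after the start, had a median GC content of 64.3% and 26.5 CG dinucleotides, beside 58.3% and 14 over 27305 promoters. The 7 brighter members with an interval below 0.37 and a window had 72.3% and 36. The letters TGANNNNGC are a loose form of the antioxidant response element, which is read by NRF2, a factor of the response to arsenite. They were found on either strand in 39 of 78 members (50.0%) and in 42.1% of all promoters. They were present in 35 of 63 brighter members and in 4 of 15 between 6 and 7. A match is a description of letters, and none of these shares was tested.

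Differences within each group were not used to choose the members and could be tested. When limma fitted passage for the RWPE-1 arrays and exposure weeks for the CAsE-PE arrays over all genes, 0 members passed an adjusted p of 0.05 for passage, where 0.0217% of all genes did, and 0 for weeks, where 0.25% did. At an unadjusted p under 0.05, 12 members had a passage trend, 3 upward and 9 downward, or 11.1% beside 5.82% of all genes. For weeks 14 had one, 4 upward and 10 downward, or 13.0% beside 11.3%. The lowest adjusted p was 0.809 for passage and 0.0691 for weeks. This fit leaves 2 residual degrees of freedom.

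WIPI1 had the lowest p of all members for the slope in either group. Its level was 7.97, 8.62 and 8.52 at passages 18, 38 and 42 and 10.24, 9.09 and 9.07 at 30, 33.5 and 35 weeks. The first RWPE-1 array was the lowest and the first CAsE-PE array by far the highest. Its slope over weeks was −0.25 per week (SE 0.04, limma adjusted p = 0.0691). The slope did not pass with array medians centred, after quantile normalisation, with a pseudocount of 16, with the mean of features or without the 30-week array. It passed with an intensity trend and robust variances, and when the single 30-week array was set against the later arrays. It also passed with any 1 of the other arrays left out, but those fits keep fewer than 2 residual degrees of freedom. Without a later CAsE-PE array the slope only compares the remaining pair of CAsE-PE arrays. Its range in CAsE-PE, 1.17, was the widest of all members there, followed by YPEL2 (1.07) and GDPD1 (1.02), both dim genes that were highest at 30 weeks.

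In order of p, MIR21 and TOB1 came next over weeks, with −0.17 (SE 0.04) and −0.14 (SE 0.04) per week. The slope of the dim gene YPEL2 was −0.18 (SE 0.05) per week, with a higher p than that of TOB1. TOB1 had 10.05 at 30 weeks against 9.37 and 9.40 later, while its RWPE-1 levels lay from 8.89 to 9.07. In RWPE-1 the widest ranges belonged to MRPS23, a mitochondrial ribosomal protein gene (0.85), CCDC47 (0.83) and FTSJ3, a ribosomal RNA methyltransferase gene (0.82), and each was lowest at passage 42. MRPS23 stood at 7.86, 7.63 and 7.02 there and at 7.93, 8.06 and 8.12 in CAsE-PE, a difference of 0.53 (SE 0.19), and the passage 42 array lay farthest from the others. Of the 81 brighter members 34, or 42.0%, were above the RWPE-1 mean at passage 42, beside 43.0% of all genes at that level. Of the 27 dim ones 24, or 88.9%, were, beside 56.3% of all genes of every level. The share for all genes from 6 to 7 was not worked out, so nothing is read from these counts.

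Leaving out 1 array moved the common shift between 0.31, without passage 42, and 0.43, without passage 18. Without passage 38, 28 members were called higher instead of 43, and without passage 18, 10 intervals lay above the shift instead of 19. MRC2 was called lower whichever single array was left out and after quantile normalisation. The call of SCN4A was lost in each of those fits, and RNF43 was called lower without passage 42.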

How the data were processed

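The authors deposited 1 linear intensity per feature for 33252 features on 6 single-colour arrays, with a largest value of 16617. Per the labels' protocols, Trizol and a Qiagen kit gave total RNA, which was labelled with an Ambion kit. How they corrected, summarised and normalised these values is not given in the sources used here. Features were named through the platform annotation: 19460 had 1 symbol, 1754 several, and 12038 are not listed there. Each of 18417 genes was represented by its brightest feature, as log2(intensity + 1). The added 1 understates differences of dim genes slightly. Whether background remained in the values could not be judged. Gene order came from RefSeq, GRCh38.p14.

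Groups came from the labels, and nothing in them pairs arrays across groups. limma 3.58.1 in R 4.3.3 (lmFit, eBayes, two-sided, Benjamini-Hochberg over all genes) fitted the groups with 4 residual degrees of freedom and the trends with 2. Its precision is limited by 3 arrays per group. Python 3.11.15, numpy 2.4.6 and pandas 2.3.3 made the summaries. The fits were tested on simulated data. Promoter windows are from RefSeq, the first listed for the 18 members with several, and the mature miRNA from its miRNA table.

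The members and all lists were chosen with earlier results of these data known. Named were the 10 highest and 10 lowest members, those nearest each boundary and level limit, up to 6 of each role list, and the strongest trends and widest ranges. Their neighbours in gene order, back-to-back genes and similar copies were added after values were seen. Alternatives were quantile normalisation, centring, another pseudocount, feature rule, level limit, interval rule and variance model, and each array left out.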

Additional observations from a re-analysis of the deposited data

How the results depend on the processing

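The common shift was 0.40 with array medians centred, 0.34 with a pseudocount of 16, 0.35 after quantile normalisation, 0.47 with a level limit of 7 and 0.24 with none. Members called lower numbered 1 after quantile normalisation, 1 with the limit of 7 and 4 with none. Intervals above the shift numbered 10 with the limit of 7 and 35 with none, and intervals below it 14 with the limit of 7. Fewer or more genes enter under these limits. A weeks trend was called for 1 member with robust variances and for 1 with the first array set against the later ones, WIPI1 each time.

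With 1 array left out the shift ranged from 0.31 to 0.43, members called higher from 28 to 43 and lower from 1 to 2. Intervals above the shift ranged from 10 to 22, around it from 55 to 67 and below it from 30 to 33. A passage trend was called for 0 to 0 members and a weeks trend for 0 to 2, with 2 without the 35-week array, WIPI1 and YPEL2. These trend fits keep fewer than 2 residual degrees of freedom, so little weight rests on their calls. Over named members and alternatives, 338 differences moved by less than the spread between replicates and 3 by more, those of RNF43, SCN4A and TSPOAP1 after quantile normalisation. No paired analysis was possible because replicate numbers follow accession order and the labels pair no arrays. Signal over background cannot be judged without detection calls, which limits values under a level of 7.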
